A study of Mus musculus with 6 samples.

Results

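The genes described here are 10 mouse genes that build, load or control major histocompatibility complex (MHC) class I molecules: H2-K1, H2-D1, B2m, Tap1, Tap2, Tapbp, Psmb8, Psmb9, Psmb10 and Nlrc5. They were taken by gene name from a deposited table of 23413 genes. Each name has a single row in that table, and all 10 were among the 14451 genes that passed a filter on low counts. RNA was sequenced from hematopoietic stem cells (HSC) sorted from the bone marrow of WT mice. F4/80 positive HSC were compared with F4/80 negative HSC, with 3 libraries per group made from 2000 to 5000 sorted cells each. F4/80, encoded by Adgre1, is a surface protein used as a marker of macrophages. The series title concerns trogocytosis, in which a cell takes up membrane pieces of another cell, in connection with the receptor c-Kit. The labels give no age, strain or treatment, and they do not say whether the libraries came from separate animals. The spread behind each p-value is thus that of these libraries and may be technical.

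MHC class I molecules show short peptides from inside the cell to CD8 T cells and are also read by receptors of natural killer cells. The proteasome cuts proteins into peptides, and interferon leads cells to replace its constitutive catalytic subunits Psmb5, Psmb6 and Psmb7 with Psmb8, Psmb9 and Psmb10. Tap1 and Tap2 form the pump that moves peptides into the endoplasmic reticulum. There Tapbp, called tapasin, holds the heavy chain near the pump until a peptide has bound. H2-K1 and H2-D1 encode classical heavy chains, and B2m encodes the light chain that they pair with to reach the surface. Nlrc5 is a transactivator that drives class I genes without binding DNA itself, through RFX, CREB or ATF family and NF-Y proteins that sit on their promoters.

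Promoter sequences are shown because these genes are known for shared promoter elements and because Psmb9 and Tap1 start close together on opposite strands. Windows came from RefSeq on GRCm38.p6, an older build than the GRCm39 named by the submitters, so their positions are not comparable with those of the table. Windows were matched by symbol for 8 of the 10 genes, and those of Nlrc5 and Tap2 are not used here. Each single-gene window holds the 250 bases before the start site, read 5′ to 3′ on the gene's strand. The Tap1-Psmb9 window holds the 225 bases between both start sites, read on the Tap1 strand. Capitals mark matches on either strand to AANNGAAA (an interferon regulatory factor core), TGACG (as in CREB or ATF sites), CCAAT (the NF-Y box) or GGGNNTTCC (an NF-kB type site, N standing for any base). The Tap1-Psmb9 window is chr17:34187331-34187555 (+), the H2-K1 window chr17:34000348-34000597 (-) and the H2-D1 window chr17:35262844-35263093 (+). The B2m window is chr2:122147437-122147686 (+), the Tapbp window chr17:33919228-33919477 (+) and the Psmb8 window chr17:34197945-34198194 (+).
Tap1-Psmb9 shared: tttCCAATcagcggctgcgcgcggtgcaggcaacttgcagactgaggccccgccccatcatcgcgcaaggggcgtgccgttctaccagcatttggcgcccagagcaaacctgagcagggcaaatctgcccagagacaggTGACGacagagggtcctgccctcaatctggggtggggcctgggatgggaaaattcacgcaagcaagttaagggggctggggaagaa
H2-K1: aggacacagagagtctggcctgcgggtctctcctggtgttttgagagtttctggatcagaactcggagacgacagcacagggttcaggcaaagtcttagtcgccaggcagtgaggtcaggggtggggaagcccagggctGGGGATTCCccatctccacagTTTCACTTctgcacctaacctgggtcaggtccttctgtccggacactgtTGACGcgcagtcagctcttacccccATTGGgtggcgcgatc
H2-D1: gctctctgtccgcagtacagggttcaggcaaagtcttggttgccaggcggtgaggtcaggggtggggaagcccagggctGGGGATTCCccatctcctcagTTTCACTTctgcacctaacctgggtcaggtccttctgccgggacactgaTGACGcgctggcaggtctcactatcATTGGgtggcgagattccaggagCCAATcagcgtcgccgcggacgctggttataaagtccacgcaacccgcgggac
B2m: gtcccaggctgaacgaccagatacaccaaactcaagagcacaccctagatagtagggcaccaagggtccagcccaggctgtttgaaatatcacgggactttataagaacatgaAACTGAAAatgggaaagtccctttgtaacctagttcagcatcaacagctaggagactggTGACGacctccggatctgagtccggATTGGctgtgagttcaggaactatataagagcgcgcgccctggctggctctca
Tapbp: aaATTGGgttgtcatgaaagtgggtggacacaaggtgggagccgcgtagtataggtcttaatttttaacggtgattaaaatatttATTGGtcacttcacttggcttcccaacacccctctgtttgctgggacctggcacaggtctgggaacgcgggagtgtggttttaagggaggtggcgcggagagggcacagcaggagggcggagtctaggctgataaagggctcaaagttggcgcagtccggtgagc
Psmb8: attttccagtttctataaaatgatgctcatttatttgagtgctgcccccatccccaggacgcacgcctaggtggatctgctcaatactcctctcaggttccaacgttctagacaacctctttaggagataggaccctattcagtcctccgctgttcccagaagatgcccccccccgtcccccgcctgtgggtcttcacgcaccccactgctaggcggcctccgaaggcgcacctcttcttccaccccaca

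H2-K1 and H2-D1 windows were near copies of each other, with 167 of 190 aligned bases identical (87.9%), and both held all 4 motifs. GGGNNTTCC occurred in 1635 of all 32851 RefSeq promoter windows (4.98%). TGACG and CCAAT occurred together in 4 of the 7 windows searched, which were the 6 shown and that of Psmb10. These 4 were the windows of H2-K1, H2-D1, B2m and Tap1-Psmb9, and 6.12% of all windows held both. In H2-K1, H2-D1 and B2m, TGACG was followed after 20 bases by ATTGG, the reverse complement of CCAAT, and 30 of all windows (0.0913%) held this spacing on either strand. The spacing was noticed in these windows before it was counted in the others. AANNGAAA was found in the windows of H2-K1, H2-D1 and B2m and in 21.3% of all windows. The Tapbp window held CCAAT at 2 positions, a motif present in 33.8% of all windows, and TGACG, present in 17.8%, was not among its letters. No match to the 4 motifs was found in the windows of Psmb8 and Psmb10. RefSeq start sites can differ from the ends of the gene rows that were counted. The rows of Psmb9 and Tap1 overlap by 212 bases, while 225 bases lie between their RefSeq starts. A window may thus lie inside its gene row, which was not checked, and a missing motif is stated for the window only. The positions of the matches do not overlap in the windows shown, and a match describes letters only.

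F4/80 positive libraries summed to between 18637526 and 21042379 counts and F4/80 negative libraries to between 18649394 and 20103661. Adgre1 itself was at 32.1 ± 9.46 CPM in F4/80 positive and 2.30 ± 0.782 CPM in F4/80 negative libraries (counts scaled to library size, SD, n = 3 each; edgeR adjusted p = 0.000659). Of the macrophage markers, 17 of 17 tested were higher in F4/80 positive libraries, with a summed level of 690 to 1340 CPM against 162 to 188 CPM. The stem cell markers summed to 2456 to 2707 CPM in F4/80 positive and 3343 to 3943 CPM in F4/80 negative libraries, and 7 of 12 were lower and 1 higher. Genes without a call made up most of this sum, and the median log2 fold change of the 12 was -1.38. The higher gene was Cd48, a marker that stem cell gates use by its absence (log2 fold change 1.09, edgeR adjusted p = 0.0474). T and NK cell markers summed to 308 to 316 CPM in F4/80 positive and 115 to 177 CPM in F4/80 negative libraries. Nkg7, a granule protein gene, made up most of this sum and was higher, at 296 ± 4.90 CPM in F4/80 positive and 128 ± 31.1 CPM in F4/80 negative libraries. Klrb1c, a receptor of NK cells, was lower, at 1.24 ± 0.706 CPM in F4/80 positive and 5.67 ± 2.08 CPM in F4/80 negative libraries (log2 fold change -2.20, edgeR adjusted p = 0.0164). Cd3e, Cd3d, Cd3g and Cd8a had 0 counts in all F4/80 positive libraries, which allows 0.147 to 0.167 CPM. In F4/80 negative replicates 1 to 3, Cd3e had 10, 13 and 4 counts and Cd3d 5, 17 and 3. Cd3g had 5, 21 and 5 counts there and Cd8a 15, 0 and 0, and none of these genes passed the low-count filter. B cell markers summed to 52.0 to 76.1 CPM in F4/80 positive and 60.0 to 99.9 CPM in F4/80 negative libraries. Dendritic cell markers summed to 3.67 to 7.39 CPM in F4/80 positive and 13.6 to 25.0 CPM in F4/80 negative libraries. Endothelial and stromal markers summed to 78.2 to 89.9 CPM in F4/80 positive and 81.5 to 92.9 CPM in F4/80 negative libraries. The mitochondrial share of counts was 0.525% to 0.619% in F4/80 positive and 0.650% to 0.783% in F4/80 negative libraries. The part of these markers and of mitochondrial content in the class I values below was not tested. In bulk libraries fewer cells of a type and less RNA per cell cannot be told apart.

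Calls among the 10 genes ran in both directions. Psmb8 was called higher in F4/80 positive HSC, Tapbp and Nlrc5 were called lower, and the other 7 did not pass the test, a call being an edgeR adjusted p below 0.05 over all tested genes. Over all tested genes, 20.5% were called, 9.65% as higher and 10.9% as lower, so 3 called of 10 is near the background. The groups did not overlap for 6 of the 10 genes, against 40.6% of all tested genes. The median log2 fold change of the 10 was -0.06, and that of all tested genes was -0.03. With the replicate number as a block, which pairs same-numbered libraries, edgeR called 3 of the 10 higher (Tap1, Tap2 and Psmb8) and 3 lower (H2-K1, Tapbp and Nlrc5). The block also raised the calls over all tested genes, to 2105 higher and 2429 lower, from 1395 and 1572 without it. Blocked counts here and in the lists below stand beside that larger background. Together the 10 genes took 0.859% to 0.899% of all counts in F4/80 positive and 0.911% to 1.02% in F4/80 negative libraries. After scaling for library composition their summed levels overlapped, at 8731 to 9318 CPM in F4/80 positive and 8942 to 9965 CPM in F4/80 negative libraries.

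**Figure D1:**
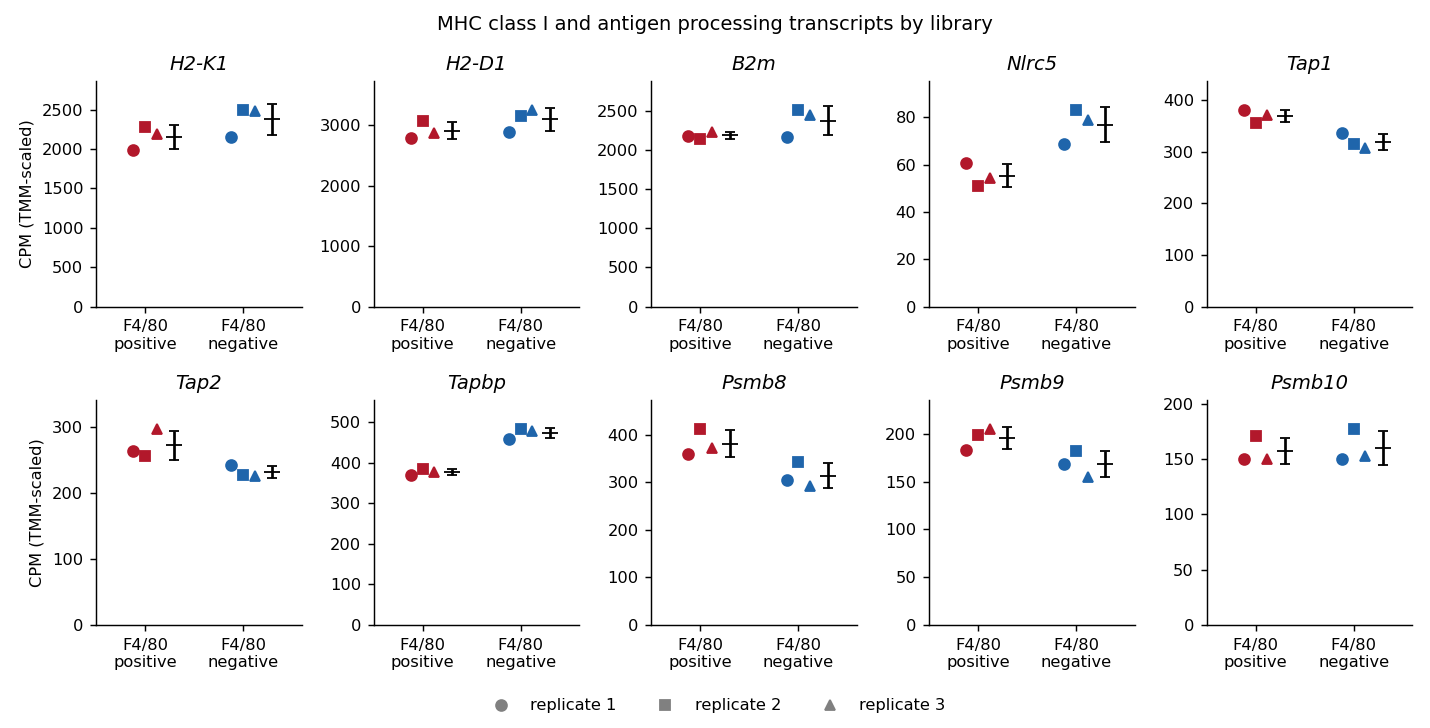
Level of each of the 10 genes in each library, in CPM scaled with TMM composition factors, on axes that start at 0; F4/80 positive libraries are red and left, F4/80 negative libraries blue and right, and the bars give mean and SD (n = 3). The groups stand apart for Nlrc5, Tap1, Tap2, Tapbp, Psmb8 and Psmb9 and overlap for H2-K1, H2-D1, B2m and Psmb10.

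Per length, the light chain was the most abundant transcript and the transactivator the least. This order depends on the gene lengths used, and by CPM H2-D1 averaged above B2m in both groups. On the FPKM scale deposited by the authors (fragments scaled by gene length and library size), B2m averaged 2540.5 ± 64.8 in F4/80 positive and 2735 ± 224 in F4/80 negative libraries. H2-D1 averaged 1126 ± 49.1 against 1189 ± 75.7 FPKM, and H2-K1 averaged 731 ± 48.9 against 802 ± 68.7 FPKM. In every library B2m stood above H2-D1, H2-D1 above H2-K1, and H2-K1 above all genes of peptide supply. Psmb8 averaged 113 ± 7.63 FPKM in F4/80 positive and 92.0 ± 8.31 FPKM in F4/80 negative libraries, and Tapbp averaged 103 ± 1.69 against 129 ± 4.06 FPKM. These genes changed places between the groups. Psmb8 stood above Tapbp in 3 of 6 libraries, which were the F4/80 positive ones, and below it in every F4/80 negative library. Psmb10 lay below Tapbp in 6 of 6 libraries. Psmb10, Tap2, Tap1 and Psmb9 kept this order among themselves in 6 of 6 libraries, with a median FPKM ratio of Tap2 to Tap1 of only 1.04. The Nlrc5 level averaged 6.51 ± 0.596 FPKM in F4/80 positive and 8.97 ± 0.898 FPKM in F4/80 negative libraries, and Psmb9 was above it by a median of 6.33-fold.

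Transcripts of the surface molecule itself, heavy and light chain, averaged slightly lower in F4/80 positive libraries and did not pass the test without pairing. H2-K1 lies on the minus strand at chr17:34214991-34219321, in the coordinates of the table. Its level was 1987, 2278 and 2189.5 CPM in F4/80 positive replicates 1 to 3, against 2156, 2491 and 2488.5 CPM in F4/80 negative replicates 1 to 3. The groups overlapped, and replicate 1 was lowest in both. The log2 fold change was -0.14 (SE 0.080, 95% interval -0.33 to 0.04, edgeR adjusted p = 0.228). Within same-numbered pairs the F4/80 positive library was lower in each, and with the replicate block the log2 fold change of -0.14 passed the test (edgeR adjusted p = 0.0272). H2-D1, at chr17:35481706-35486475 on the plus strand, was at 2792, 3065 and 2875 CPM in F4/80 positive replicates, against 2889, 3157 and 3247 CPM in F4/80 negative replicates. The groups overlapped, and the log2 fold change was -0.09 (SE 0.067, 95% interval -0.24 to 0.06, edgeR adjusted p = 0.373).

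B2m, at chr2:121978167-121983564 on the plus strand, was at 2186, 2147 and 2232 CPM in F4/80 positive replicates and at 2166, 2507 and 2452 CPM in F4/80 negative replicates. F4/80 positive libraries lay close together, F4/80 negative replicate 1 was at their level, and the other two F4/80 negative libraries were higher. The log2 fold change of B2m was -0.12 (SE 0.068, 95% interval -0.27 to 0.04, edgeR adjusted p = 0.251). Heavy chain transcripts stood in nearly the same mean ratio to the light chain in both groups. The log2 ratio of H2-K1 plus H2-D1 to B2m, per kilobase, was -0.45 ± 0.096 in F4/80 positive and -0.46 ± 0.030 in F4/80 negative libraries (SD, n = 3 each), a difference of 0.0045 (two-sided exact permutation test, p = 0.9). Its sign turned without F4/80 positive replicate 2 (-0.0487) or F4/80 negative replicate 2 (-0.013).

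Heavy chain genes are near-identical paralogs, so the split of reads between H2-K1 and H2-D1 is uncertain. H2-K1 made up 39.3% ± 0.814 of H2-K1 plus H2-D1 per kilobase in F4/80 positive and 40.2% ± 0.672 in F4/80 negative libraries (SD, n = 3 each; two-sided exact permutation p = 0.2). The sum over all 17 class I heavy chain rows does not depend on that split. It was 5818 ± 309 CPM in F4/80 positive and 6297 ± 397 CPM in F4/80 negative libraries, and H2-K1 plus H2-D1 made up 86.3% to 87.3% of it. The sum had a log2 fold change of -0.11 (SE 0.068, 95% interval -0.27 to 0.04, edgeR adjusted p = 0.262). With the replicate block it was also -0.11 and passed the test (edgeR adjusted p = 0.0446).

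Nlrc5, the class I transactivator, was lower in F4/80 positive HSC. The gene spans chr8:95160984-95253900 on the plus strand. Its level was 60.7, 51.0 and 54.3 CPM in F4/80 positive replicates, against 68.8, 82.9 and 79.0 CPM in F4/80 negative replicates. All F4/80 positive libraries lay below all F4/80 negative libraries, and replicate 1 gave the closest pair. The level was 1.39-fold lower, a log2 fold change of -0.47 (SE 0.110, 95% interval -0.72 to -0.23, edgeR adjusted p = 0.0189). The call was lost without F4/80 positive replicate 2 (0.0704) or 3 (0.0784) and without F4/80 negative replicate 2 (0.0506) or 3 (0.0712), all edgeR adjusted p. At its start the gene overlaps by 748 bases an antisense RNA gene, 9330175E14Rik, which had 12 to 49 counts in F4/80 positive and 38 to 63 in F4/80 negative libraries. Whether the authors' counting used strand is not given in the sources used here.

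Peptide transport split between the pump and its partner: Tapbp was lower in F4/80 positive HSC, while the pump subunits lay higher without passing the test. Tapbp, at chr17:34134873-34148266 on the plus strand, was at 369, 383 and 377 CPM in F4/80 positive replicates, against 459, 483 and 477 CPM in F4/80 negative replicates. The groups were far apart relative to their spread. Tapbp was 1.26-fold lower, a log2 fold change of -0.33 (SE 0.060, 95% interval -0.47 to -0.19, edgeR adjusted p = 0.00737). The call held in all 12 alternatives tried, with adjusted p between 0.000176 (DESeq2) and 0.0399 (edgeR without F4/80 positive replicate 3). Zbtb22, at chr17:34134878-34138299, lies with all its 3422 bases inside the Tapbp row and on the same strand. Strand thus cannot separate reads of these genes there, and how such reads were assigned is not given in the sources used here. The level of Zbtb22 was 44.1 ± 2.60 CPM in F4/80 positive and 38.7 ± 6.51 CPM in F4/80 negative libraries (edgeR adjusted p = 0.356), the other direction from Tapbp.

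Tap1, at chr17:34406527-34416199 on the plus strand, was at 380.1, 356 and 372 CPM in F4/80 positive replicates, against 337, 315 and 307 CPM in F4/80 negative replicates. The groups did not overlap, and the log2 fold change was 0.21 (SE 0.068, 95% interval 0.05 to 0.36, edgeR adjusted p = 0.0595). Tap2, at chr17:34422501-34435295 on the plus strand, was at 264, 256 and 297 CPM in F4/80 positive replicates, against 243, 227 and 225 CPM in F4/80 negative replicates. The groups did not overlap here either, and F4/80 positive replicate 3 stood highest. The log2 fold change was 0.23 (SE 0.080, 95% interval 0.05 to 0.41, edgeR adjusted p = 0.0686). With the replicate block both passed the test, Tap1 at an edgeR adjusted p of 0.022 and Tap2 at 0.0362. DESeq2 called both as well, at adjusted p of 0.0351 for Tap1 and 0.0453 for Tap2.

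Since pump and tapasin work in the same complex, their transcripts were also set against each other, a comparison chosen after the values were seen. The log2 ratio of Tap1 to Tapbp per kilobase was -0.62 ± 0.075 in F4/80 positive and -1.16 ± 0.10 in F4/80 negative libraries (SD, n = 3 each). The difference was 0.54. Because both genes were picked with their opposite directions known, it describes the single-gene values on 1 scale and was not tested.

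**Figure D2:**
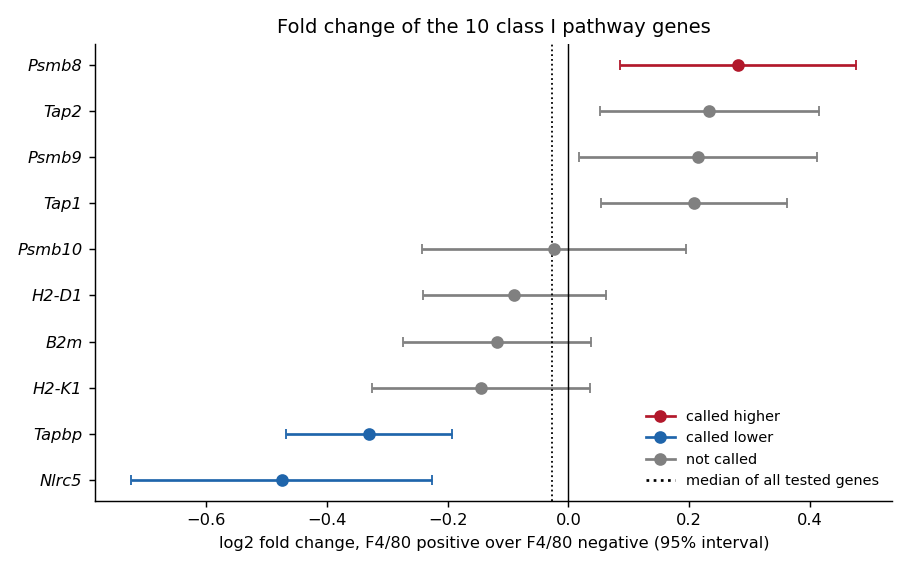
Log2 fold change of F4/80 positive over F4/80 negative libraries for each of the 10 genes (edgeR; points, 95% intervals as bars, n = 3 per group), with the median of all tested genes as a dotted line. Psmb8 (0.28) is called higher, Tapbp (-0.33) and Nlrc5 (-0.47) are called lower, and the intervals of Tap1, Tap2 and Psmb9 lie above 0 before adjustment over all genes.

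Of the 3 inducible proteasome subunits, 1 was called. Psmb8, also known as LMP7 and placed at chr17:34416695-34420428 on the plus strand, was at 359, 413 and 373 CPM in F4/80 positive replicates, against 306, 344 and 292 CPM in F4/80 negative replicates. All F4/80 positive libraries were above all F4/80 negative ones, and replicate 2 was highest in both groups. Psmb8 was 1.22-fold higher, a log2 fold change of 0.28 (SE 0.086, 95% interval 0.09 to 0.48, edgeR adjusted p = 0.0489). The call lay at the threshold. Its edgeR adjusted p was 0.109 with no composition factor, and 0.0711, 0.147 and 0.107 without F4/80 positive replicates 1, 2 and 3. It was 0.122 and 0.136 without F4/80 negative replicates 1 and 3, and 0.022 without F4/80 negative replicate 2. With the replicate block it was 0.00686.

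Psmb9, also known as LMP2, lies at chr17:34400961-34406738 on the minus strand. It was at 183, 198 and 205 CPM in F4/80 positive replicates, against 168, 182 and 155 CPM in F4/80 negative replicates. The groups did not overlap, with F4/80 negative replicate 2 just below F4/80 positive replicate 1, and the log2 fold change was 0.22 (SE 0.087, 95% interval 0.02 to 0.41, edgeR adjusted p = 0.112). Psmb10, also known as MECL-1 and placed at chr8:106662367-106665076 on the minus strand, was at 150.2, 171 and 150.0 CPM in F4/80 positive replicates, against 149.9, 177 and 152 CPM in F4/80 negative replicates. The groups had nearly the same values, with replicate 2 highest in both, and the log2 fold change was -0.02 (SE 0.096, 95% interval -0.24 to 0.19, edgeR adjusted p = 0.887). It changed sign without F4/80 positive replicate 1 or 3 or F4/80 negative replicate 2.

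The constitutive subunits that these replace were set beside them. Psmb5, the partner of Psmb8, was at 205, 243 and 228 CPM in F4/80 positive replicates, against 154, 197 and 151 CPM in F4/80 negative replicates, a log2 fold change of 0.42 (SE 0.117, edgeR adjusted p = 0.0357). Psmb7, the partner of Psmb10, was at 71.7, 84.3 and 77.2 CPM in F4/80 positive replicates, against 59.0, 64.5 and 54.4 CPM in F4/80 negative replicates, a log2 fold change of 0.39 (SE 0.104, edgeR adjusted p = 0.032). Psmb6, the partner of Psmb9, was at 268, 327 and 317 CPM in F4/80 positive replicates, against 244, 267 and 242 CPM in F4/80 negative replicates. Its groups did not overlap, and its log2 fold change was 0.28 (SE 0.091, edgeR adjusted p = 0.0621, and 0.0161 with the replicate block). The calls of Psmb5 and Psmb7 were lost without F4/80 positive replicate 2 or 3 or F4/80 negative replicate 1 or 3, and that of Psmb5 also without F4/80 positive replicate 1. Their edgeR adjusted p then reached 0.114 for Psmb5 and 0.103 for Psmb7.

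Shares within each pair were taken per kilobase of the deposited gene lengths, such as 3381 bases for Psmb8 and 899 for Psmb5. The size of a share depends on these lengths, and by CPM Psmb8 lay above Psmb5 in every library. Psmb10 made up 80.8%, 80.3% and 79.6% of Psmb10 plus Psmb7 in F4/80 positive replicates, against 83.6%, 84.6% and 84.9% in F4/80 negative replicates. The groups did not overlap, and the difference of -4.15 percentage points had an exact permutation p of 0.1, the smallest that 3 against 3 libraries allow. Psmb8 made up 31.1% ± 0.765 of Psmb8 plus Psmb5 in F4/80 positive and 33.3% ± 1.51 in F4/80 negative libraries (SD, n = 3 each; exact permutation p = 0.2). Psmb9 made up 24.8% ± 1.12 of Psmb9 plus Psmb6 in F4/80 positive and 25.5% ± 0.738 in F4/80 negative libraries (SD, n = 3 each; exact permutation p = 0.6). So Psmb8 was higher in F4/80 positive libraries by CPM, while its share of the pair averaged lower with overlapping groups. Shares of transcripts do not measure assembled proteasomes.

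**Figure D3:**
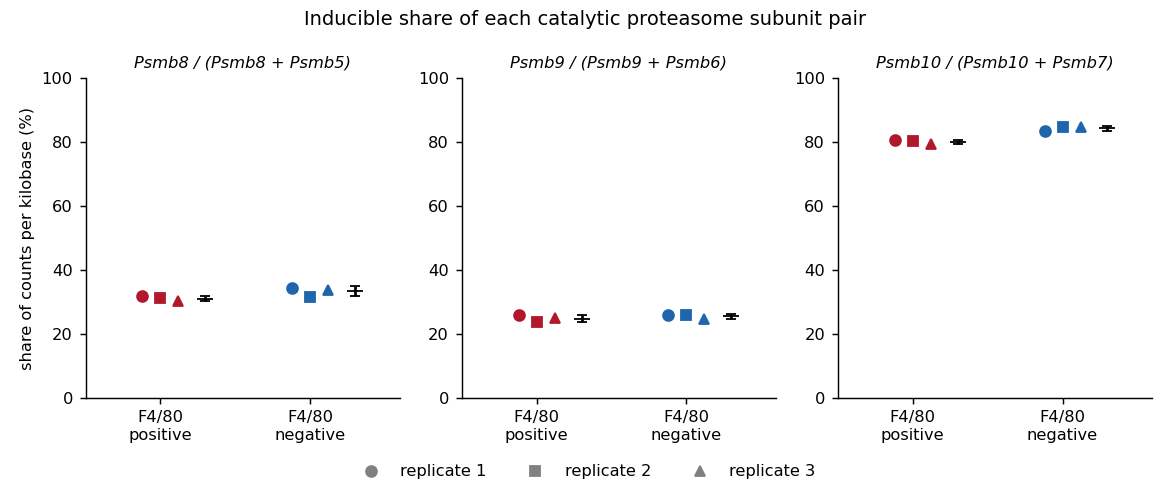
Share of the inducible subunit in each inducible plus constitutive pair, from counts per kilobase, on axes from 0 to 100%; points are libraries, with F4/80 positive red and left and F4/80 negative blue and right, and bars give mean and SD (n = 3). The groups stand apart for Psmb10, at 79.6% to 80.8% against 83.6% to 84.9%, and overlap for Psmb8 and Psmb9.

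Psmb9, Tap1, Psmb8 and Tap2 lie next to each other on chromosome 17, within 34335 bases from 34400961 to 34435295, and no other gene of the table starts between their starts. The lncRNA gene Gm15821 lies inside Tap2 on the other strand, with 1 to 5 counts in F4/80 positive and 2 to 9 in F4/80 negative libraries. Psmb9 and Tap1 run in opposite directions and overlap by 212 bases, Tap1 and Psmb8 are 495 bases apart, and Psmb8 and Tap2 are 2072 bases apart. All 4 had log2 fold changes between 0.21 and 0.28 with no overlap of the groups, and of these edgeR called Psmb8 alone without pairing. Psmb9 and Tap1, whose RefSeq start sites frame the 225-base window shown above, had nearly the same ratio in both groups. The log2 ratio of Psmb9 to Tap1 per kilobase was -0.34 ± 0.12 in F4/80 positive and -0.35 ± 0.12 in F4/80 negative libraries (SD, n = 3 each), a comparison chosen after the values were seen. Its difference of 0.0074 ranged from -0.0309 to 0.0753 with a library left out. Tapbp and H2-K1, which are 66724 bases apart on one side of the cluster, had log2 fold changes of -0.33 and -0.14. H2-D1, 1046410 bases beyond Tap2 on the other side, had a log2 fold change of -0.09.

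**Figure D4:**
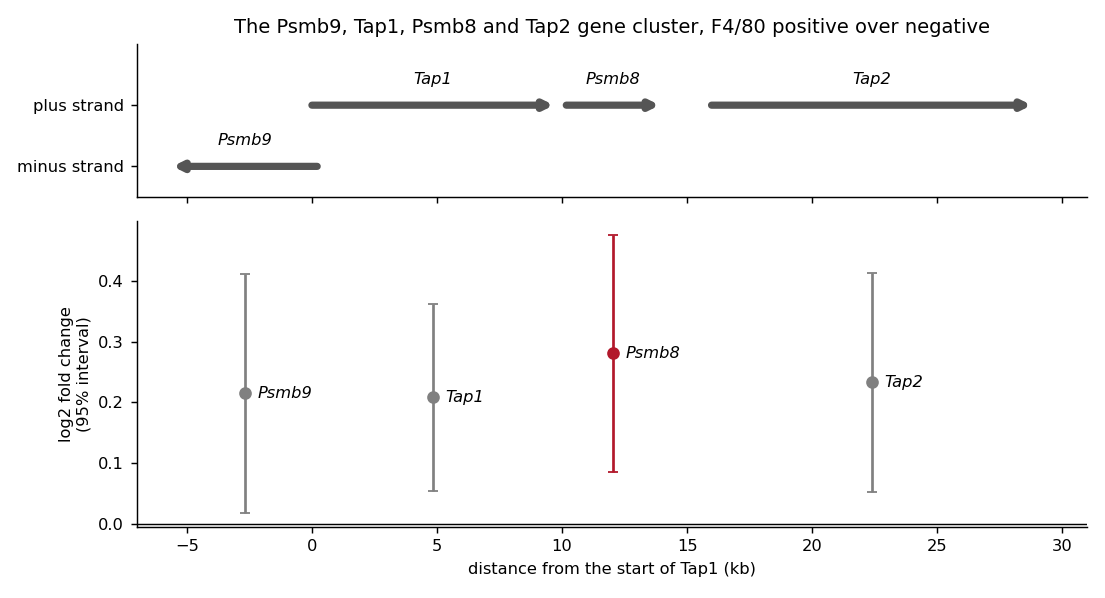
Upper panel: position and strand of Psmb9, Tap1, Psmb8 and Tap2 along chromosome 17, in kilobases from the start of Tap1. Lower panel: log2 fold change of F4/80 positive over F4/80 negative libraries at each gene's centre with its 95% interval (edgeR, n = 3 per group); all 4 intervals lie above 0, and Psmb8, in red, is the gene called after adjustment.

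Psmb8 lay higher and Nlrc5 lower in F4/80 positive libraries. The Psmb8 call was at the threshold, and both calls were lost in several omissions of single libraries. The log2 ratio of Psmb8 to Nlrc5 per kilobase was 4.12 ± 0.23 in F4/80 positive and 3.36 ± 0.13 in F4/80 negative libraries (SD, n = 3 each). The difference was 0.76. This ratio was also chosen after the values were seen and is a description with no test.

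Among other class I and class I-like heavy chains, 14 of 20 listed genes could be tested, of which 1 was higher and 4 were lower in F4/80 positive HSC, with a median log2 fold change of -0.23. These are 7.14% and 28.6% of the list, against 9.65% higher and 10.9% lower over all tested genes. This list and those below were chosen with earlier results of these data known. Their shares are descriptions, and no test was made of any list against the background. With the replicate block 1 was higher and 5 were lower, and with no composition factor 0 were higher. Mr1, which presents vitamin B metabolites to innate-like T cells, was at 24.5 ± 0.946 CPM in F4/80 positive and 42.9 ± 4.78 CPM in F4/80 negative libraries (log2 fold change -0.81, SE 0.122, edgeR adjusted p = 0.0033). Cd1d1, which presents lipids to natural killer T cells, was at 49.4 ± 3.65 against 66.0 ± 5.72 CPM (-0.42, SE 0.105, edgeR adjusted p = 0.0256). H2-T22, a ligand of some gamma delta T cells, was at 65.2 ± 1.81 against 80.9 ± 3.51 CPM (-0.31, SE 0.085, edgeR adjusted p = 0.035). Fcgrt, the neonatal Fc receptor, was the other lower gene (-0.61, edgeR adjusted p = 0.0469). H2-Q7, a Qa-2 heavy chain, was the higher one, at 85.3 ± 5.03 CPM in F4/80 positive and 67.5 ± 1.47 CPM in F4/80 negative libraries (0.34, SE 0.087, edgeR adjusted p = 0.0285). H2-Q7 has close copies in the Q region, so its share of their reads is uncertain. Mr1 kept its call with any library left out. H2-Q7 lost it without F4/80 positive replicate 2 or 3 or F4/80 negative replicate 1 or 3 (edgeR adjusted p up to 0.0956), and Fcgrt without F4/80 positive replicate 1 or 3 or F4/80 negative replicate 2 or 3 (up to 0.159). Cd1d1 lost it in every omission except that of F4/80 negative replicate 1 (up to 0.0934), and H2-T22 in every omission except that of F4/80 negative replicate 2 (up to 0.119).

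Genes of peptide loading, folding and trimming were divided, with 3 of 14 tested genes higher and 3 lower (21.4% each), against 9.65% higher and 10.9% lower over all tested genes, and a median of 0.09. The replicate block gave 5 higher and 3 lower, and with no composition factor 1 was higher. Calr, the lectin chaperone calreticulin of the loading complex, was at 850, 940.3 and 937 CPM in F4/80 positive replicates, against 669, 750.5 and 676 CPM in F4/80 negative replicates (log2 fold change 0.38, SE 0.073, edgeR adjusted p = 0.00914). Pdia3, the disulfide isomerase ERp57 that pairs with tapasin, was at 912 ± 49.2 CPM in F4/80 positive and 761 ± 36.0 CPM in F4/80 negative libraries (0.26, SE 0.068, edgeR adjusted p = 0.0286). Calr and Pdia3 thus lay on the other side from Tapbp, their partner in the complex. Blmh, a cytosolic peptidase, was also higher (0.31, edgeR adjusted p = 0.0308). Tapbpl, the tapasin relative TAPBPR that exchanges peptides, was at 50.5 ± 5.32 CPM in F4/80 positive and 76.9 ± 13.7 CPM in F4/80 negative libraries (-0.61, SE 0.145, edgeR adjusted p = 0.0216). Erap1, the aminopeptidase that trims peptides in the endoplasmic reticulum, was at 219 ± 11.3 against 271 ± 19.8 CPM (-0.31, SE 0.080, edgeR adjusted p = 0.0288). Lnpep, an endosomal aminopeptidase, was lower by the same test (-0.32, edgeR adjusted p = 0.0333). Calr kept its call with any library left out. Tapbpl lost it without F4/80 positive replicate 1 or 3 or F4/80 negative replicate 3 (edgeR adjusted p up to 0.0899), and Pdia3 without F4/80 positive replicate 2 or 3 or F4/80 negative replicate 1 or 3 (up to 0.0823). Blmh lost it in every omission except that of F4/80 negative replicate 2 (up to 0.0973), Erap1 in every one except that of F4/80 negative replicate 1 (up to 0.102), and Lnpep in all 6 omissions (up to 0.11).

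Of 9 constitutive catalytic subunits, proteasome activators and assembly genes, 3 were higher (33.3%) and 0 lower, against 9.65% higher and 10.9% lower over all tested genes, with a median of 0.25. Under the replicate block 5 were higher, and with no composition factor 1 was. Beside Psmb5 and Psmb7, the called gene was Psme3, a nuclear proteasome activator, at 419.7 ± 25.8 CPM in F4/80 positive and 326 ± 22.2 CPM in F4/80 negative libraries (0.36, SE 0.078, edgeR adjusted p = 0.0146, and 0.0518 without F4/80 positive replicate 2). Psme1 and Psme2, the interferon-inducible activator subunits that work with the inducible proteasome, had log2 fold changes of 0.03 (edgeR adjusted p = 0.826) and 0.14 (edgeR adjusted p = 0.408), with overlapping groups.

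Of 16 transcription factors that act on class I genes, 6 were lower (37.5%) and 1 higher (6.25%), against 9.65% higher and 10.9% lower over all tested genes, with a median of -0.23. The block by replicate number gave 7 lower and 1 higher. Irf2 was at 69.9 ± 3.15 CPM in F4/80 positive and 100.8 ± 10.9 CPM in F4/80 negative libraries (log2 fold change -0.53, SE 0.103, edgeR adjusted p = 0.00966). Irf1, an activator of class I and inducible proteasome genes after interferon gamma, was at 84.4, 113 and 85.7 CPM in F4/80 positive replicates, against 129.8, 166 and 187 CPM in F4/80 negative replicates (-0.77, SE 0.157, edgeR adjusted p = 0.0116). Irf9, the DNA-binding part of the type I interferon factor, was at 117 ± 20.8 against 177 ± 11.1 CPM (-0.60, SE 0.127, edgeR adjusted p = 0.0137). Rela (-0.35, edgeR adjusted p = 0.0428) and Ciita, the class II transactivator related to Nlrc5 (-1.35, edgeR adjusted p = 0.0186), were also lower. Nfyb, a subunit of the NF-Y factor that binds CCAAT, was at 70.1 ± 4.17 CPM in F4/80 positive and 46.8 ± 4.20 CPM in F4/80 negative libraries (0.58, SE 0.103, edgeR adjusted p = 0.00616). Irf2 and Nfyb kept their calls with any library left out. The edgeR adjusted p reached 0.054 for Irf1 without F4/80 positive replicate 1 or 3 and 0.053 for Irf9 without F4/80 positive replicate 1. Ciita lost its call without F4/80 positive replicate 1 or 3 or F4/80 negative replicate 3 (up to 0.068), and Rela in every omission except that of F4/80 negative replicate 2 (up to 0.141).

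Interferon receptors, their kinases and feedback inhibitors were also lower where called, 5 of 11 (45.5%), with 0 higher, against 9.65% higher and 10.9% lower over all tested genes, and a median of -0.27. Blocking by replicate number gave 7 lower and 0 higher, and without the low-count filter 3 were lower. Ifngr2, a chain of the interferon gamma receptor, was at 25.4 ± 0.951 CPM in F4/80 positive and 37.4 ± 1.58 CPM in F4/80 negative libraries (log2 fold change -0.56, SE 0.109, edgeR adjusted p = 0.00973). Ifnar1, a chain of the type I interferon receptor, was at 90.7 ± 1.03 against 121.6 ± 8.98 CPM (-0.42, SE 0.087, edgeR adjusted p = 0.0117). Ifngr1, the other interferon gamma receptor chain, was at 216 ± 13.2 against 261 ± 12.7 CPM (-0.27, SE 0.076, edgeR adjusted p = 0.0366). Socs1, a feedback inhibitor of this signalling, was at 9.08 ± 0.936 against 16.1 ± 2.63 CPM (-0.82, SE 0.182, edgeR adjusted p = 0.0162), and Jak1 was lower at -0.24 (edgeR adjusted p = 0.0475). Ifngr2 kept its call with any library left out, and Ifnar1 reached an edgeR adjusted p of 0.0502 without F4/80 positive replicate 3. Socs1 lost its call without F4/80 positive replicate 1 or 3 (up to 0.0644), Ifngr1 in every omission except that of F4/80 negative replicate 3 (up to 0.134), and Jak1 in all 6 omissions (up to 0.156).

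**Figure D5:**
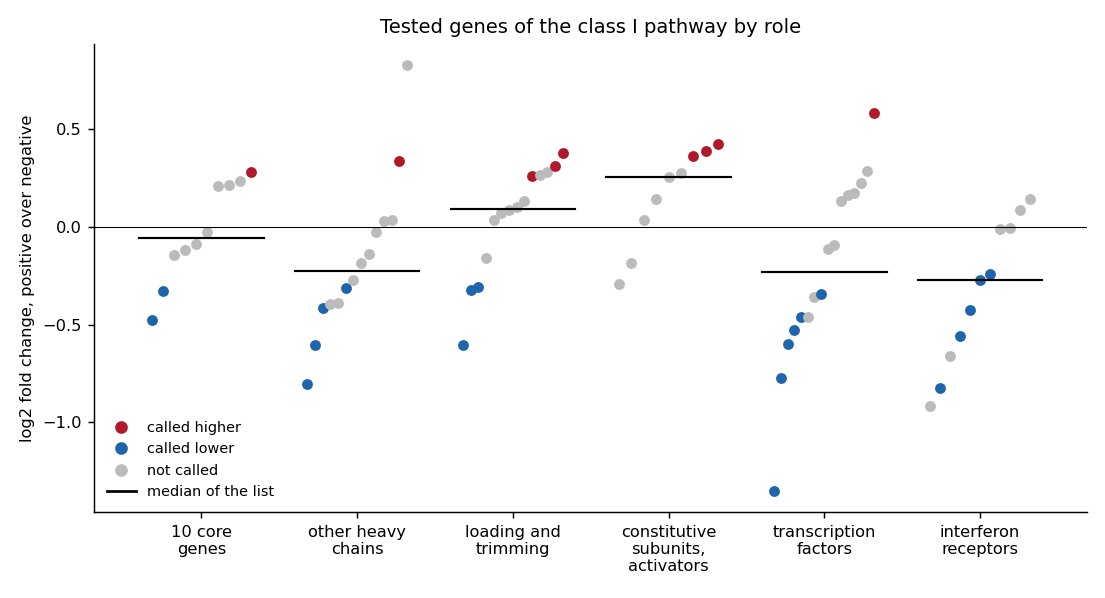
Log2 fold change of F4/80 positive over F4/80 negative libraries for the 10 genes and for the tested genes of 5 lists of their pathway (edgeR, n = 3 per group); each point is a gene, red when called higher, blue when called lower and grey when not called, and bars are list medians. Medians run from -0.27 for interferon receptors to 0.25 for constitutive subunits and activators.

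Genes with the most similar profile over the 6 libraries were looked up for Nlrc5, B2m, Psmb8 and H2-K1, by the root mean square difference of centred log2 CPM among 10423 candidates. For Nlrc5 these were Slc35e2 (0.0487), Rbl2 (0.0547) and Aldh4a1 (0.0576). For Psmb8 they were Drg1 (0.0191), Ube2g2 (0.0213) and Prelid1 (0.0214). For B2m they were Ncdn (0.0238), Atp6v1b2 (0.0332) and Oaz2 (0.0334), and for H2-K1 they were Ddrgk1 (0.0223), the pseudogene Ftl2-ps (0.0225) and Tspan31 (0.0230). None of these nearest genes was among the other 9 genes described here. Only the nearest few of many candidates were taken, so this does not show whether the genes described here share a profile.

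In the authors' deposited table, the adjusted p was 0.0271 for Psmb8, 0.00146 for Tapbp and 0.00378 for Nlrc5. That of the other 7 genes in the authors' deposited table lay between 0.0586 for Tap1 and 0.963 for Psmb10.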

How the data were processed

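Messenger RNA of 3 F4/80 positive and 3 F4/80 negative libraries was analysed, and the labels name a stranded SMARTer-type library kit. Tools named in the submitters' processing notes, without roles, are DESeq2 and HISAT2 2.0.5, with the build GRCm39 (mm39). How strand was used, which tool counted and which annotation release applied is not given in the sources used here. The tests used the deposited raw counts. A normalized signal, deposited by the authors, equals the count over a size factor per library. FPKM values deposited by the authors were used only to order levels. The authors' log2 fold changes and p-values come from their own comparison.

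Counts were fitted in R 4.3.3 with edgeR 4.0.16 (filterByExpr with minimum count 10 and minimum total 15, TMM factors, quasi-likelihood test, Benjamini-Hochberg over 14451 genes, threshold 0.05). Standard errors were derived from the F statistic, and log2 CPM had a prior count of 2. Ratios used two-sided exact permutation tests over libraries, except those chosen after their values were seen, which were not tested. Alternatives were DESeq2 1.42.0, limma-voom 3.58.1, other scaling, no filter, the replicate block and each library left out. The test was also tried on simulated data. Libraries of a group differed beyond sampling noise (chi-square per degree of freedom 11.6 to 24.8), so none was counted as a repeat deposit.

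The labels number the libraries alike in both groups (4, 5 and 7, here replicates 1 to 3). Deviations of same-numbered libraries correlated at 0.214 to 0.284, above the limit of 0.1 for every pair, so blocked values are given where they change a call. With no composition factor 942 genes were called higher and 1970 lower (32.3% higher), against 1395 and 1572 (47% higher), and the median log2 fold change of all genes was -0.10. A floor of 3 counts is 0.146 to 0.167 CPM and covers counting error only. Named genes are the 10 genes, Psmb5 to Psmb7, Adgre1 and Ifngr1 whatever their test, called genes of 5 pathway lists, nearest profiles and cell type markers. A gene that this rule names is not reported here. The 10 genes and the lists were chosen with earlier results of these data known. Promoters were searched in Python 3.11.15 with Biopython 1.88.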

Additional observations from a re-analysis of the deposited data

How the results depend on the processing

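Under 12 alternative settings, Tapbp, Mr1, Calr, Irf2, Nfyb, Ifngr2 and Adgre1 kept their direction and their call, and 3 values without a call changed sign when a library was left out. These were the Psmb10 log2 fold change (0.0117 without F4/80 positive replicate 1, 0.0135 without F4/80 positive replicate 3, 0.0654 without F4/80 negative replicate 2), the heavy chain to B2m ratio (-0.0487 without F4/80 positive replicate 2, -0.013 without F4/80 negative replicate 2) and the Psmb9 to Tap1 ratio (-0.0309 and -0.022 without F4/80 positive replicates 2 and 3, -0.0304 and -0.0224 without F4/80 negative replicates 1 and 3). Over all omissions these ranged from -0.0851 to 0.0654 for Psmb10 and from -0.0309 to 0.0753 for Psmb9 to Tap1. With no composition factor, calls of higher genes were 0 of the 10 genes, 0 other heavy chains, 1 loading gene and 1 constitutive subunit or activator. Over all tested genes this setting called 942 higher and 1970 lower. Without the low-count filter 3 interferon receptor genes were lower. With the replicate block edgeR called 2105 genes higher and 2429 lower, and 3 of the 10 genes, 5 loading genes and 5 constitutive subunits or activators were higher. The blocked heavy chain sum was -0.114 (edgeR adjusted p = 0.0446), and beside H2-K1, Tap1, Tap2 and Psmb6 the block changed no other call among the 10 genes, the called list genes and Adgre1. DESeq2 called 3 of the 10 higher and 2 lower, and over all tested genes it called 1798 higher and 1951 lower.

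With single libraries left out, 656 to 1437 genes were higher and 802 to 1612 lower. Of the 10 genes 0 to 1 were higher and 1 to 2 lower. Other heavy chains gave 0 to 1 higher and 1 to 4 lower, loading genes 1 to 3 higher and 0 to 2 lower, and constitutive subunits and activators 0 to 3 higher. Transcription factors gave 2 to 6 lower and interferon receptors 1 to 4 lower. The heavy chain to B2m ratio ranged from -0.0487 to 0.0437. Of 26 called genes of the 5 lists, 5 kept their call in every omission. Omissions leave fewer libraries to test, and why calls were lost was not tested further. The comparison rests on 3 libraries per group, which limits its precision to the intervals given.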
